A study of Mus musculus with 9 samples.

Results

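The insulin-like growth factor (IGF) genes described here are the ligands Igf1 and Igf2, the receptors Igf1r and Igf2r, and the binding proteins Igfbp2, Igfbp3, Igfbp4, Igfbp5, Igfbp6 and Igfbp7. They were chosen by gene symbol, and all 10 had a line in the deposited table of 19517 genes and a p-value in each of its 3 comparisons. The choice was made with results of these comparisons known, so the values below describe the 10 genes and the authors' p-values are given as part of that description.

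The samples were ovarian tissue of athymic (BALB/c nude) female mice, each bearing a xenograft tumour of the MDA-MB-231 line, which derives from a human breast cancer. The CTX group received cyclophosphamide, an alkylating chemotherapy drug. The CAU group received caulerpin, an indole alkaloid of green algae, and its labels do not say whether cyclophosphamide was given too. The UT group was untreated. Each group had 3 libraries measured by RNA-seq, and doses, times and ages are not given in the labels. The mice were thus all tumour-bearing, and no group without a tumour was analysed here. The replicate labels do not name separate animals, and what the p-values measure is the spread among libraries, which can be partly technical.

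IGF1 and IGF2 are secreted growth factors that signal through the tyrosine kinase receptor encoded by Igf1r. The receptor encoded by Igf2r binds IGF2 and carries it to the lysosome for breakdown. The binding proteins hold IGFs in the extracellular fluid, extend their lifetime and limit or direct their access to the receptor, and proteases release the ligand by cutting them. In the mouse ovary Igf1 is known chiefly from granulosa cells of growing follicles, where IGF1 adds to the action of follicle-stimulating hormone, and in the rat ovary Igfbp4 and Igfbp5 are known from follicles undergoing atresia.

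For each comparison the deposited table gives DESeq2's p-value and adjusted p beside the log2 fold change, with no value per library. Levels, the overlap between single ovaries and the depth of each library were therefore not examined, and the tissue label could not be checked. All 11 granulosa and 7 oocyte marker genes looked up had a p-value in every comparison. Only 215 to 272 of the 19517 genes lacked one per comparison, so almost any list would have. Each standard error (SE) is the one implied by a gene's own log2 fold change and p-value, and each 95% interval follows from it. A gene is called changed where the deposited adjusted p, taken over all genes of a comparison, is under 0.05. The headers do not say which group is the numerator. Columns were read as the second group named over the first, a reading under which Cdkn1a, a p53 target, is at 1.99 (SE 0.32) in CTX against UT per the authors' deposited table, and all directions below would turn round under the opposite reading. In bulk tissue, fewer cells of a type and less RNA per cell cannot be told apart.

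In CTX ovaries Igfbp3, which encodes the main carrier of IGFs in blood, fell relative to UT. Igfbp4, Igfbp5 and Igfbp6 also had negative log2 fold changes whose 95% intervals lay below 0, without passing the adjusted threshold. Igfbp2 and Igfbp7 were on the other side of 0, and neither ligand nor receptor passed. So 1 of 10 genes was called, against 1.29% of the 19260 genes tested (0.820% called lower and 0.472% called higher). By unadjusted p under 0.05 per the authors' deposited table, 4 of the 10 were lower and 1 higher, where 5.79% and 4.42% of all genes were. The median log2 fold change was -0.34 over the 6 binding proteins and -0.20 over the 10 genes, against -0.03 over all genes.

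The log2 fold change of Igfbp3 in CTX against UT was -1.54 (SE 0.41, 95% interval -2.35 to -0.73, adjusted p = 0.0209) per the authors' deposited table. That is a level 0.343 times the UT level, or 2.92-fold lower, and it placed Igfbp3 at rank 172 of 19260 by p-value, with 4.61% of genes having a lower log2 fold change. Igfbp3 (gene ID 16009) lies on the minus strand at chr11:7206086-7215498 of GRCm38.p6. In human cells the gene is also known as one that p53 can induce. In CTX against UT, Igfbp3 was lower and Cdkn1a higher, and any part of p53 in the value of Igfbp3 was not tested. The adjusted p of the next member by p-value, Igfbp5, was 0.133, so Igfbp3 was the only member inside the threshold, and at a threshold of 0.01 it too would lie outside.

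Igfbp6 encodes a binding protein that prefers IGF2 to IGF1. The authors' deposited table gives it a log2 fold change of -0.52 (SE 0.18, 95% interval -0.87 to -0.16, p = 0.0042, adjusted p = 0.144) in CTX against UT. Igfbp5, which encodes a binding protein that also attaches to extracellular matrix, was at -0.34 (SE 0.12, 95% interval -0.57 to -0.11, p = 0.00358, adjusted p = 0.133) per the authors' deposited table. Igfbp4, whose product mainly inhibits IGF action, was at -0.33 (SE 0.12, 95% interval -0.56 to -0.10, DESeq2 adjusted p = 0.159) in the same table, by DESeq2. These 3 values were close to each other, corresponding to levels 0.699, 0.790 and 0.795 times those of UT, and their intervals overlapped. The interval of Igfbp3 lay wholly below those of Igfbp4 and Igfbp5 and overlapped that of Igfbp6. Differences between genes were not tested.

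The remaining pair of binding proteins had positive values with intervals across 0. Igfbp2 was at 0.21 (SE 0.34, 95% interval -0.45 to 0.87) and was among the less precise of the 10 genes in CTX against UT per the authors' deposited table. Igfbp7, whose product binds IGFs only weakly, was at 0.13 (SE 0.20, 95% interval -0.26 to 0.52) there. Igfbp2 and Igfbp5 are neighbours on chromosome 1, in a tail-to-tail pair 5591 bases apart in GRCm38.p6, and stood on opposite sides of 0. On chromosome 11 the nearest protein-coding gene to Igfbp3 is Igfbp1, 3540 bases away, which encodes a binding protein known mainly from the liver. Its value per the authors' deposited table was -0.29 with an SE of 1.15, too imprecise to set beside that of Igfbp3.

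Neither ligand passed the adjusted threshold. In CTX against UT, Igf1 was at 0.02 (SE 0.19, 95% interval -0.35 to 0.38, p = 0.924) per the authors' deposited table, with 92.8% of genes having a smaller p-value. Igf2, a paternally expressed imprinted gene, was at -0.37 (SE 0.19, 95% interval -0.74 to 0.00, p = 0.0524, adjusted p = 0.502) per the authors' deposited table. Its value was close to those of Igfbp4 and Igfbp5, with a wider interval.

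The receptors had small values of opposite sign. Igf1r was at -0.07 (SE 0.13, 95% interval -0.32 to 0.19) in CTX against UT per the authors' deposited table. Igf2r, which is imprinted in the other direction and expressed from the maternal allele, was at 0.16 (SE 0.08, 95% interval 0.01 to 0.32, p = 0.0416, adjusted p = 0.458) per the authors' deposited table. This is 1.12 times the UT level, and only 4.53% of genes had a smaller SE.

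**Figure D1:**
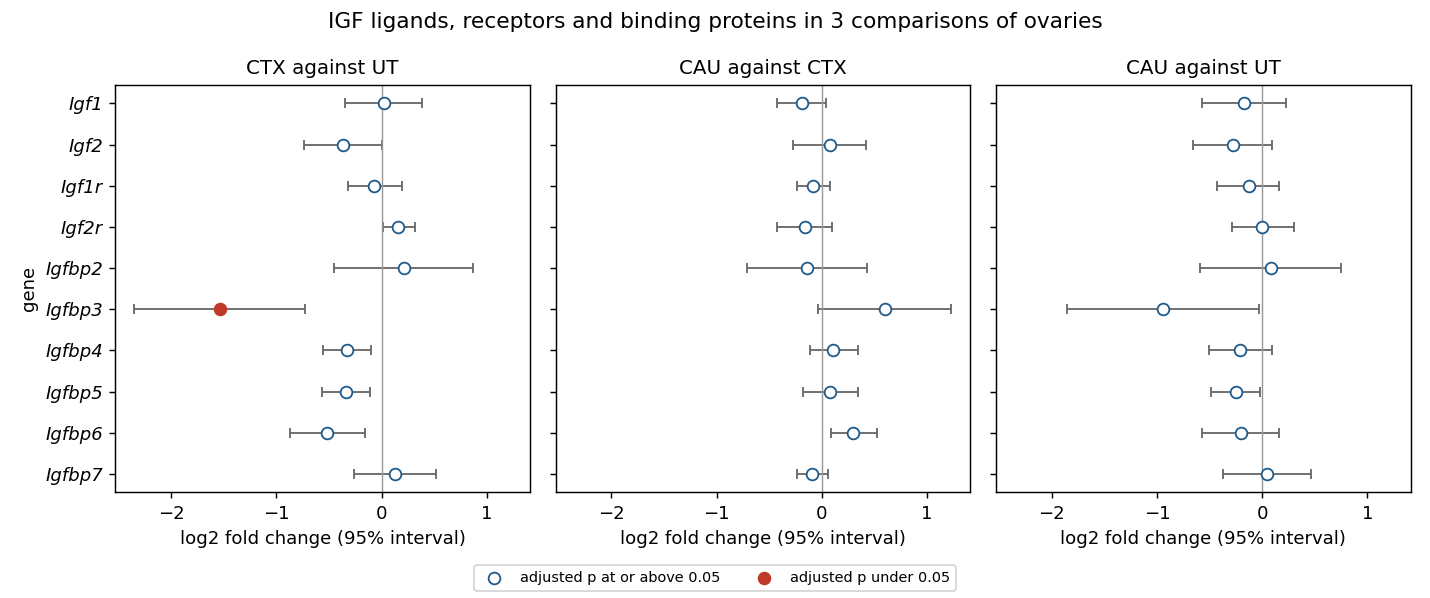
Log2 fold changes of the 10 IGF genes (points) with 95% intervals from the implied SE (bars), 1 panel for each comparison, from the authors' deposited table. Igfbp3 in CTX against UT, at -1.54, is the only filled point, which marks an adjusted p under 0.05.

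**Figure D2:**
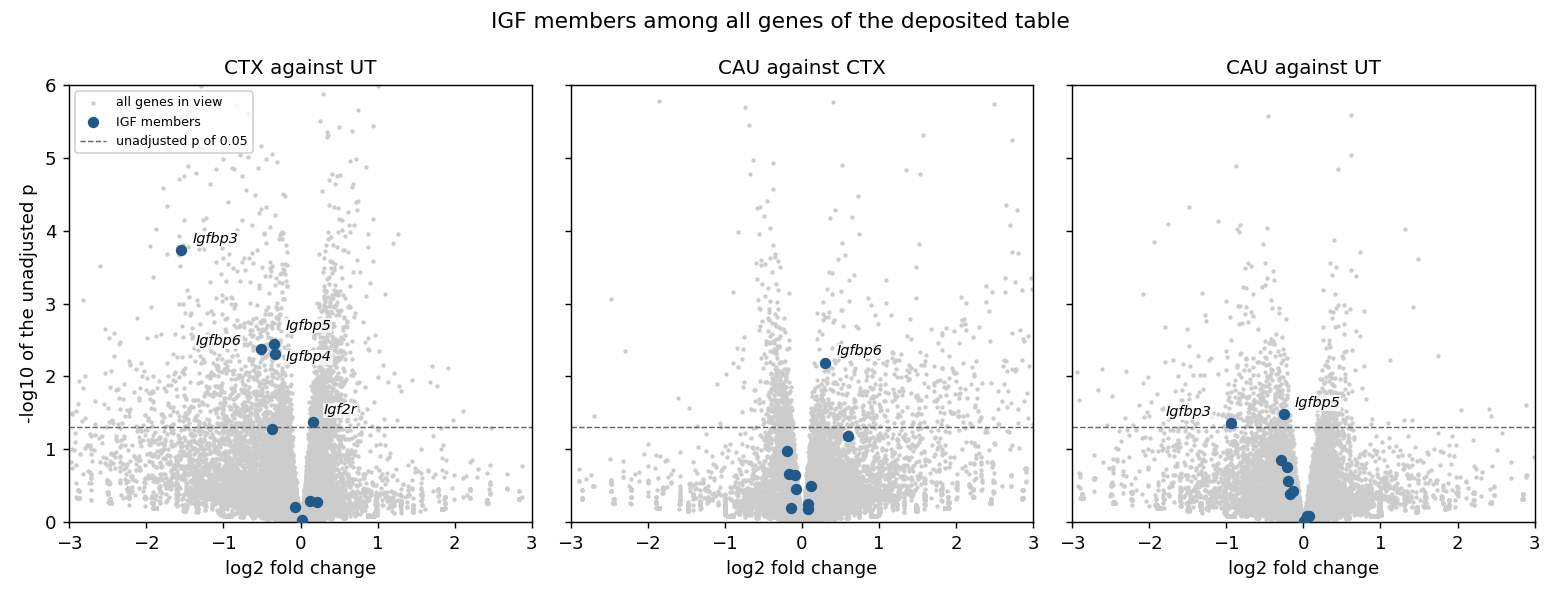
Each gene's log2 fold change (x axis) against the -log10 of its unadjusted p (y axis) from the authors' deposited table, with the 10 IGF genes in blue and other genes in grey, cut at 3 on either side of 0 on the x axis and at 6 on the y axis. In CTX against UT, Igfbp3, Igfbp4, Igfbp5 and Igfbp6 lie above the dashed line for an unadjusted p of 0.05 on the lower side and Igf2r lies above it on the higher side.

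Promoter windows are shown for the 4 binding protein genes with intervals below 0 in CTX against UT and, for contrast, for Igfbp7, to let their composition be seen beside the values. Each runs 5′ to 3′ on the gene's own strand from 250 bases before to 50 bases after the start site that the RefSeq promoter table (GRCm38.p6) gives. For Igfbp3 and Igfbp4, which have several RefSeq transcripts, that start lies 1575 and 1239 bases inside the gene's outermost start, and windows at the outermost starts were not used here. Capitals mark the TATA box TATAAA, the CCAAT box CCAAT and the GC box GGGCGG, searched on both strands, so a match on the other strand appears as its reverse complement. All 10 genes matched, with 14 windows in all.

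Igfbp3, chr11:7213874-7214173, minus strand: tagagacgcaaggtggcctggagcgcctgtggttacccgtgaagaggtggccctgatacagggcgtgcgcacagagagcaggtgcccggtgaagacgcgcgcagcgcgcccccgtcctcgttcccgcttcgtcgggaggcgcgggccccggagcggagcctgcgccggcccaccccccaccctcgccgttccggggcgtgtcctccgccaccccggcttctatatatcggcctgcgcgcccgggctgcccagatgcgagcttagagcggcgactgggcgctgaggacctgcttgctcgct

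Igfbp4, chr11:99040994-99041293, plus strand: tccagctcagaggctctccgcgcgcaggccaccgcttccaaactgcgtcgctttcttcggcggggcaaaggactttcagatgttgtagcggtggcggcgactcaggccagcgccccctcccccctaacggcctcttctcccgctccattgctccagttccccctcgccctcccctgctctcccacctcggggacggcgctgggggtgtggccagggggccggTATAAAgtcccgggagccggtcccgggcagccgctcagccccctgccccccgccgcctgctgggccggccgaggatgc

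Igfbp5, chr1:72874816-72875115, minus strand: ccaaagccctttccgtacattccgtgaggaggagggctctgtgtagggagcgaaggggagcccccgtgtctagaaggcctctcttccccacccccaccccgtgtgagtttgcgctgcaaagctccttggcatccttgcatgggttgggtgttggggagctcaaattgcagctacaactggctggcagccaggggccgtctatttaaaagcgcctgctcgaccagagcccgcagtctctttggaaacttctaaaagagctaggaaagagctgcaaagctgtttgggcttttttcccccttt

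Igfbp6, chr15:102143936-102144235, plus strand: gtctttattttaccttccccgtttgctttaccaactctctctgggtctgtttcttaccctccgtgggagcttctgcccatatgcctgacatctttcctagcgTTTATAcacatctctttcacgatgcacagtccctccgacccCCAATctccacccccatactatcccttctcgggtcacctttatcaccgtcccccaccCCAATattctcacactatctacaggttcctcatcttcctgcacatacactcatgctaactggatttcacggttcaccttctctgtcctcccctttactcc

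Igfbp7, chr5:77407996-77408295, minus strand: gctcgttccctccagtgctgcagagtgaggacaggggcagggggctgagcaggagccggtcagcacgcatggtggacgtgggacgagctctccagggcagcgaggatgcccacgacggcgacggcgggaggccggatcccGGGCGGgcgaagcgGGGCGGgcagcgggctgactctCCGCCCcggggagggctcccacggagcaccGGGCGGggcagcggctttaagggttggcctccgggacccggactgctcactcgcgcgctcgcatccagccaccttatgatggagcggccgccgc

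None of the 4 windows of Igfbp3, Igfbp4, Igfbp5 and Igfbp6 held a GC box, and that of Igfbp7 held 4. Over the other members, the windows of Igf1r and Igf2r held 2 and 3, that of Igf1 none, the windows of Igfbp2 3 and none, and the 4 windows of Igf2, whose value was close to those of Igfbp4 and Igfbp5, held 2, 1, none and none. Of the other members, Igf1 alone also had no GC box in any window, while the rest held at least 1. Some windows of Igfbp2 and Igf2 lacked one as well. Any link between GC boxes and the expression values was not tested. Of all 32851 windows of the same length, 35.7% held a GC box, so most of those windows lacked one. TATAAA was present at 28 bases before the start site of Igfbp4 and, on the other strand, further upstream in Igfbp6, against 13.6% of all windows. Igfbp6 also held 2 CCAAT boxes, which occur in 37.4% of all windows. The windows of Igfbp3, Igfbp4 and Igfbp7 were rich in G and C (71.7%, 71.3% and 73.3%) and those of Igfbp5 and Igfbp6 less so (56.3% and 49.7%), against a median of 52.7%. These are letters in short windows compared after the expression values were seen, and a missing match says nothing about which factors act on a gene.

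Between CAU and CTX none of the 10 genes was called by DESeq2 in the authors' deposited table, where 0.442% of 19245 genes were. By unadjusted p under 0.05 there was 1, Igfbp6, on the higher side and none on the lower, against 3.32% and 2.04% of all genes. Igfbp6 was at 0.30 in CAU against CTX (SE 0.11, 95% interval 0.09 to 0.52, p = 0.00645, adjusted p = 0.414) per the authors' deposited table, 1.24 times the CTX level. Igfbp3 had the highest log2 fold change of the 10, at 0.60 (SE 0.32, 95% interval -0.04 to 1.23, p = 0.0646, adjusted p = 0.998) per the authors' deposited table, and its interval spans no difference to a rise above 2-fold.

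The remaining members were close to 0 in CAU against CTX. Igfbp4 was at 0.11 (95% interval -0.11 to 0.34) and Igfbp5 at 0.08 (95% interval -0.18 to 0.34) per the authors' deposited table. Igfbp2 was at -0.14 (95% interval -0.71 to 0.43) and Igfbp7 at -0.09 (95% interval -0.24 to 0.06) there. Of the ligands, Igf1 was at -0.19 (SE 0.12, 95% interval -0.43 to 0.04, p = 0.107) and Igf2 at 0.08 (95% interval -0.27 to 0.42) per the authors' deposited table. The receptor genes Igf1r and Igf2r were at -0.08 (95% interval -0.24 to 0.08) and -0.16 (95% interval -0.43 to 0.10) in the same table. The median over the 10 genes was -0.00 and that over all genes 0.00.

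In CAU against UT none of the 10 genes was called by DESeq2 in the authors' deposited table, where 10 of 19302 genes (0.0518%) were. By unadjusted p under 0.05, Igfbp3 and Igfbp5 were lower and none was higher, against 2.26% and 1.20% of all genes. Igfbp3 was at -0.94 (SE 0.47, 95% interval -1.85 to -0.03, p = 0.0433) and Igfbp5 at -0.25 (SE 0.12, 95% interval -0.49 to -0.02, p = 0.0329) per the authors' deposited table, each with an adjusted p that rounds to 1.

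For the other binding proteins in CAU against UT, Igfbp4 was at -0.21 (95% interval -0.51 to 0.09) and Igfbp6 at -0.20 (95% interval -0.57 to 0.16) per the authors' deposited table. Igfbp2 and Igfbp7 were at 0.08 (95% interval -0.59 to 0.75) and 0.05 (95% interval -0.37 to 0.46) there. Igf2 was at -0.28 (95% interval -0.66 to 0.09), Igf1 at -0.17 (95% interval -0.57 to 0.23), Igf1r at -0.13 (95% interval -0.43 to 0.16) and Igf2r at 0.00 (95% interval -0.29 to 0.30) per the authors' deposited table. The median over the 10 genes was -0.19, against -0.01 over all genes.

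Placed in order by these fold changes, Igf2, Igfbp3, Igfbp4, Igfbp5 and Igfbp6 had their lowest level in CTX, CAU in between and the highest in UT. Igfbp2 and Igfbp7 ran the other way, with CTX highest and UT lowest, and Igf2r was highest in CTX with CAU and UT level (0.00). The range of these genes was 0.13 to 0.21 on the log2 scale per the authors' deposited table. Igf1 and Igf1r were lowest in CAU. The comparisons share groups, so the place of CAU between the other groups is not independent of the CTX value. For Igfbp3 the step between CTX and UT passed the adjusted threshold, and the steps of CAU to either neighbour did not. For the other 9 genes no step did.

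Genes near Igfbp3 were sought by their pair of log2 fold changes (CTX against UT and CAU against CTX). The search covered 14722 genes that had an SE up to 1 in both and a symbol not of a predicted gene. The 5 nearest were Clec4a3, Wnt2, Acap1, C4b and Pappa2. Their distances were 0.06 to 0.07 on the log2 scale over 3 group means. These are far below the SEs of Igfbp3 itself (0.41 and 0.32), so which genes rank nearest is uncertain. Clec4a3 encodes a C-type lectin of myeloid cells, C4b a complement component, and Pappa2 a protease that in humans cuts IGFBP3 and IGFBP5. Pappa2 was at -1.49 (SE 0.71, adjusted p = 0.429) in CTX against UT and at 0.54 (SE 0.66) in CAU against CTX per the authors' deposited table. None of the 5 was called in either comparison, with adjusted p from 0.0772 upward per the authors' deposited table.

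The 7 lists of other IGF pathway genes held few calls. Among 11 proteases of the binding proteins and their inhibitors, 1 was higher and none lower in CTX against UT, with a median log2 fold change of -0.21. This was Stc1, which encodes stanniocalcin 1, an inhibitor of the protease pappalysin 1, at 0.90 (SE 0.26, adjusted p = 0.0424) per the authors' deposited table, or 1.87 times the UT level. The 19 signalling genes downstream of the receptor that are reported here had a median of 0.04 in CTX against UT, with values from -0.41 to 0.34 and none called by DESeq2 (1 higher and 1 lower by unadjusted p under 0.05). Grb10, an adaptor gene whose product dampens the receptor's signal, was at 0.10 (SE 0.07) per the authors' deposited table.

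Among 7 genes of the growth hormone axis, which drives Igf1 expression in the liver, 1 was lower in CTX against UT (median -0.07). It was Cish, a cytokine signalling inhibitor induced through STAT5, at -1.01 (SE 0.23, adjusted p = 0.00215) in CTX against UT and at -1.31 (SE 0.23, adjusted p = 0.000125) in CAU against UT per the authors' deposited table. No gene of this list passed in CAU against CTX, where the precise genes Socs2 and Stat5b were at -0.12 (SE 0.08) and -0.13 (SE 0.09) per the authors' deposited table.

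The other 4 lists had no called gene in any comparison. The 7 other ligands, receptors and carriers had a median of -0.29 in CTX against UT with a median SE of 1.15. Values in this list ran from -1.69 to 0.94, with 1 lower and none higher by DESeq2's unadjusted p under 0.05. Insr, the insulin receptor gene and the precise one among them, was at -0.13 (SE 0.11) per the authors' deposited table. The 9 genes of IGFBP-related domain proteins had a median of -0.05, with Ccn2, the connective tissue growth factor gene, at -0.27 (SE 0.17) per the authors' deposited table. The 3 Igf2 mRNA-binding protein genes lay between 0.02 and 0.18 in CTX against UT. Of 8 imprinted genes known to be expressed with Igf2, 6 were in the deposited table under the symbols used. These 6 had a median of 0.05 in CTX against UT, with values from -0.93 to 0.35. Among them Mest was at 0.35 (SE 0.12, DESeq2 adjusted p = 0.171) per the authors' deposited table. In CAU against CTX and CAU against UT, Cish (in CAU against UT) was the only called gene of the 7 lists.

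**Figure D3:**
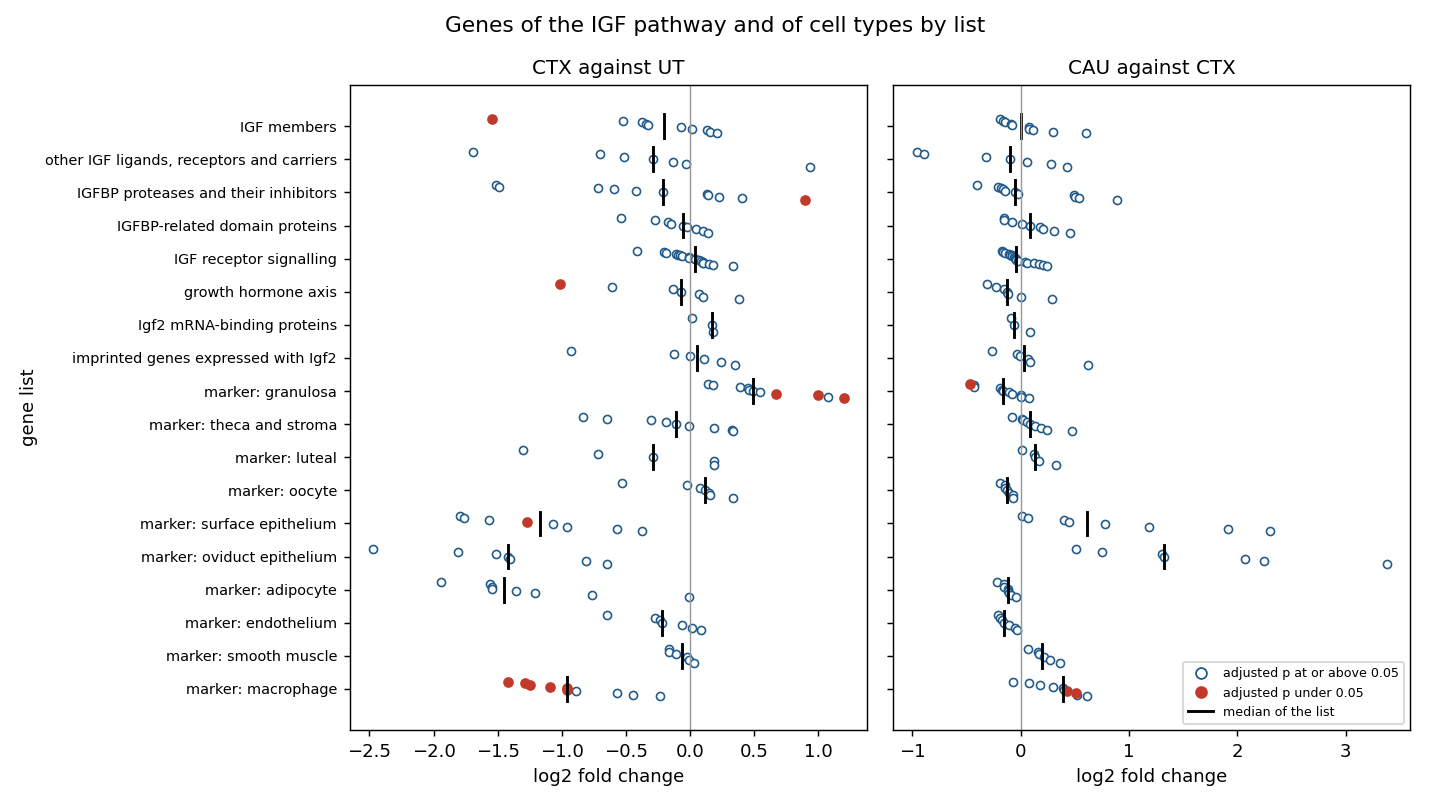
Log2 fold changes, from the authors' deposited table, of the IGF genes, 7 lists of other IGF pathway genes and 10 lists of cell type markers in CTX against UT and CAU against CTX. Each point is a gene (filled where the adjusted p is under 0.05) and each black line is the median of a list. The granulosa list lies above 0 and the macrophage and epithelial lists below 0 in CTX against UT.

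Markers of several cell types moved in the comparison in which Igfbp3 fell. In CTX against UT, 6 of 10 macrophage markers were lower, all 10 had log2 fold changes from -1.42 to -0.23 (median -0.96), and Csf1r was at -1.29 (SE 0.18, adjusted p = 1.16e-09) per the authors' deposited table. Of 8 surface epithelium markers, 1 was lower and all 8 lay between -1.79 and -0.37 (median -1.17). The 8 adipocyte markers (median -1.45, median SE 0.946) and 7 oviduct epithelium markers (median -1.42, median SE 1.34) were all negative with none called. These 2 lists were imprecise, so their shared sign is weak evidence of a shift. Granulosa markers lay on the other side: 3 of 11 were higher and all 11 positive, from 0.14 to 1.20 (median 0.49). The theca and stroma, luteal, oocyte, endothelium and smooth muscle lists had no call and medians of -0.11, -0.29, 0.12, -0.22 and -0.07.

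In CAU against CTX, 2 of 10 macrophage markers were higher (median 0.39). The surface and oviduct epithelium markers were all positive (medians 0.62 and 1.32, median SEs 0.384 and 1) with none called. Luteal and smooth muscle markers were all positive too (medians 0.13 and 0.19), and oocyte and endothelium markers all negative (medians -0.13 and -0.15). Of 9 theca and stroma markers, 8 were positive (median 0.09). None in these further lists was called, so a shared sign was not particular to the epithelial lists. The adipocyte markers were all slightly negative (median -0.12, median SE 0.874) and 1 of 11 granulosa markers was lower (median -0.16). In CAU against UT no marker was called, with medians of -0.50 for macrophages, -0.42 for surface epithelium, -1.57 for adipocytes (median SE 1.04) and 0.37 for granulosa cells. The part of these cell types in the values of Igfbp3 and the other binding proteins was not tested.

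The count of genes called over the whole table in CTX against UT was 91 higher and 158 lower as deposited, and 156 higher and 134 lower after centring all genes on a median of 0. Igfbp3 was called lower under both scalings. Igfbp7 shares part of its locus with Polr2b, which lies on the opposite strand, and noncoding genes overlap Igf1, Igf2, Igf1r and Igf2r in RefSeq. No source used here says whether reads were counted by strand, so reads of overlapping partners cannot be told apart for these 5 genes. Igfbp3, Igfbp4, Igfbp5 and Igfbp6 overlap no other gene in that annotation.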

How the data were processed

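Gene expression in ovarian tissue of 9 libraries (3 each of CTX, CAU and UT, grouped by their labels) had been compared by the authors. Per the submitters' processing notes, the build was GRCm38.p6 and the tools included DESeq2 1.44.0, RSEM 1.3.1, Bowtie2 and HISAT2, with neither role nor order. No source used here gives the strand setting, filters, covariates or annotation. Per the file headers, the values are the authors' log2 fold change for each pair of groups. Each has the DESeq2 p-value and q-value the authors deposited, the latter called adjusted p here. Recomputing a Benjamini-Hochberg adjustment over all genes with a p-value gave the q-values to within 7.74e-05. Blank values (215 to 272 genes per comparison) were left out. Depth is unknown, so nothing here rests on counts.

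Each column name was taken to put the second group over the first. The 3 log2 fold changes added up, up to a constant, within 0.01 in 18772 of 18773 genes, so all columns follow 1 convention. The implied SE divides the size of a log2 fold change by the size of the z behind its 2-sided p-value, as for a Wald test without shrinkage. No test was rerun on libraries.

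The members and lists were chosen with earlier results of these data known. Text names all 10 members, up to 3 called genes of each list (otherwise up to 2 with the smallest SE) and the 5 genes nearest to a called member. Of 142 list entries, 140 matched the table by symbol or gene ID, and 1 further gene of the signalling list is not reported here. Genes outside this rule are named for the reading of direction (Cdkn1a), as a neighbour (Igfbp1) and as an overlapping gene (Polr2b). Alternatives changed the threshold, centring, spread of z, a limit on SE and the family of adjustment. Scripts, tested on simulated data, used scipy 1.17.1, pandas 2.3.3, numpy 2.4.6 and matplotlib 3.10.9 in Python 3.11.15.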

Additional observations from a re-analysis of the deposited data

How the results depend on the processing

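In CTX against UT the number of IGF genes called was 1 under 5 of the 6 alternatives and 0 at an adjusted p threshold of 0.01, where Igfbp3 (adjusted p = 0.0209) no longer passed, as fewer genes pass a stricter threshold by construction. Over the 4 alternatives that recompute the adjustment, its adjusted p ranged from 0.0173 to 0.0395 and its log2 fold change from -1.54 to -1.52. No IGF gene was called in CAU against CTX or CAU against UT under any alternative run, with 0.0774 the lowest adjusted p of Igfbp6 in CAU against CTX, reached after scaling z to unit spread. Of 180 member values under alternatives, 179 kept direction and side of the threshold, and 1, that of Igfbp3 at 0.01, kept direction alone. Direction was almost fixed in advance, as only the centring altered log2 fold changes, by the medians of all genes (-0.0251, 0.00397 and -0.00873). Few values could change side either, since after Igfbp3 the lowest deposited adjusted p of a member was 0.133 (Igfbp5, CTX against UT, DESeq2). This tally is therefore no measure of robustness.

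Over all genes, calls in CTX against UT numbered 249 as deposited, 117 at a threshold of 0.01 and 415 at 0.10. In CAU against CTX they numbered 85, and 43 at 0.01 and 237 with z scaled. In CAU against UT they numbered 10, 24 when adjusted over the 3 comparisons together and 255 with z scaled, where the z values as deposited had spreads of 0.841 and 0.711 in the 2 comparisons with CAU. No paired analysis was possible because the deposited table holds no value per library, and leaving out replicates could not be run for the same reason.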
